A study of Homo sapiens with 19 samples.

Results

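Transcript levels and nearby HIF binding were described for 8 genes whose products sense oxygen or restrain hypoxia-inducible factor (HIF). They are the prolyl hydroxylases EGLN2, EGLN1 and EGLN3 (also called PHD1, PHD2 and PHD3), the asparaginyl hydroxylase HIF1AN (also called FIH), the substrate receptor VHL, the ubiquitin ligases SIAH1 and SIAH2, and CITED2. They were chosen by symbol from the 23441 genes of the count table, and all 8 had a row. The cells were 786-O, a cell line established from clear cell renal cell carcinoma in which VHL is defective, so that HIF-α subunits are not degraded in oxygen. Pools of 786-O cells were transduced with pRRL virus carrying no HIF cDNA (control cells), HIF-1α (HIF-1α re-expressing cells) or HIF-2α (HIF-2α overexpressing cells), and the VHL defect is shared by every pool, controls included. RNA was sequenced from 3 libraries per pool, and chromatin was immunoprecipitated with antisera to HIF-1α, HIF-2α and HIF-1β, giving 7 peak lists with 1 library each. Each pool was a transduced population on the background of 1 cell line, and nothing in the sources used here says whether the 3 libraries came from separate cultures, so p-values measure only the spread between these libraries.

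In oxygenated cells the EGLN enzymes hydroxylate prolines of HIF-α, VHL recognises the hydroxylated protein, and an elongin and cullin complex tags it for the proteasome. HIF1AN hydroxylates an asparagine that the coactivators EP300 and CREBBP would otherwise bind, CITED2 competes with HIF-α for the same coactivators, and SIAH proteins target EGLN proteins for degradation in low oxygen. EGLN1, EGLN3 and CITED2 are well known as HIF target genes, which makes them part of a feedback loop. In cells without functional VHL the hydroxylases can still act on HIF-α, but hydroxylated HIF-α is not captured by VHL.

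The sites where HIF was found near EGLN3, EGLN1, CITED2 and EGLN2 carried the hypoxia response element (HRE) core, searched as ACGTG or GCGTG on either strand. The following 161-base stretches of GRCh37, on the strand of the gene, are centred on the core nearest to the middle of each site. These sites were in 5 to 7 of the 7 peak lists. The EGLN1 site was also in 5 lists and is shown shorter below. Capitals mark HRE cores and AP-1 sites (TGACTCA on either strand).
EGLN3 intron 1: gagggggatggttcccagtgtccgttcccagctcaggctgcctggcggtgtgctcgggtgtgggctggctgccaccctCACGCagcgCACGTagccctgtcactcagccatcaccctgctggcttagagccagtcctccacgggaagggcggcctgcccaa
EGLN3 84.7 kb upstream: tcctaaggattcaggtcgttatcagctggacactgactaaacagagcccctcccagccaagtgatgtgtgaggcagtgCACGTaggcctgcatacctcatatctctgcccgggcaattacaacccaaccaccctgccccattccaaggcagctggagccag
EGLN3 93.0 kb upstream: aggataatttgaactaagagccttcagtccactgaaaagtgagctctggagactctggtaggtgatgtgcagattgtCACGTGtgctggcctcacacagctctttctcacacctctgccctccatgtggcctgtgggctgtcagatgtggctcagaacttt
EGLN3 109 kb upstream: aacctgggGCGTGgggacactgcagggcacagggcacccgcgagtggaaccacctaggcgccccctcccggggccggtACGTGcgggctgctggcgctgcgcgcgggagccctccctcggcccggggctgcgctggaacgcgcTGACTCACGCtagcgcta
CITED2 upstream: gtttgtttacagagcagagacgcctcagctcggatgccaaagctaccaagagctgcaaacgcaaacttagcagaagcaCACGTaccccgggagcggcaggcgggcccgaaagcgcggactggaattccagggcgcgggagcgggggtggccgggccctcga
The EGLN3 stretches lay, in this order, at chr14:34407627-34407787, chr14:34504907-34505067, chr14:34513221-34513381 and chr14:34529501-34529661, and the CITED2 stretch at chr6:139696498-139696658, all on the minus strand. The EGLN3 intron stretch held 2 cores, CACGC and, farther downstream, CACGT. The latter letters were followed by A in the EGLN3 intron, the 84.7 kb and the CITED2 stretches, which reads TACGTG on the opposite strand. The core at 93.0 kb was the palindrome CACGTG, which is a core on both strands. In the stretch at 109 kb an AP-1 site and an HRE core shared bases. The other EGLN3 sites shown had an AP-1 site outside the printed bases. It lay at −174, −143 and 146 bp from the middle of the intron 1, 84.7 kb and 93.0 kb sites, along the direction of the gene.

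The sites at the starts of EGLN1, EGLN2, SIAH1 and SIAH2 are shown as 29 bases around the core, since they lie in or next to transcribed sequence.
EGLN1 exon 1: gccgggccgaggGCGTGgggtgccggcct
EGLN2 start: cggggcgcggtCACGTGcccaccgggcga
SIAH1 start: ggccagagcgcCACGTGccaggatccgtt
SIAH2 exon 1: agctgctgcccgACGTGcaggggcgccct
They lay at chr1:231557775-231557803 on the minus strand, chr19:41305036-41305064 on the plus strand, chr16:48419557-48419585 on the minus strand and chr3:150480284-150480312 on the minus strand of GRCh37. EGLN2 and SIAH1 held the palindrome CACGTG, EGLN1 held GCGTG and SIAH2 held ACGTG.

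Raw counts were scaled to CPM, the counts a gene would have if each library summed to 1e6, with TMM factors, and library totals ranged from 27852754 to 54287621 counts. All 8 genes passed edgeR's filter on low counts, as did 14225 genes in all. The renal markers PAX8, PAX2, LHX1, CDH6, VIM, KRT8 and KRT18 had at least 348 counts in every library, whereas PTPRC, CDH5, TYR and ALB had at most 9 and PECAM1 had 4 to 45. A lower count can come from fewer cells of a type or from less RNA per cell, and these cannot be told apart in bulk libraries. Libraries with the same replicate number deviated from their pool means together, so values from a fit blocked on that number (the replicate block) are given wherever the block changed a call.

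The transgenes checked the labels. HIF1A measured 172, 1682 and 473 CPM in HIF-1α re-expressing libraries 1 to 3, 30.4, 36.7 and 152 CPM in the control libraries and 15.3, 30.4 and 17.5 CPM in the HIF-2α overexpressing libraries. Control replicate 3 thus stood above the other control libraries for HIF1A, close to the lowest HIF-1α re-expressing library. EPAS1, which encodes HIF-2α, measured 946, 3244 and 880 CPM in HIF-2α overexpressing cells, 456, 224 and 162 CPM in control cells and 575, 627 and 397 CPM in HIF-1α re-expressing cells. The HIF-2α overexpressing libraries lay above all others for EPAS1. These rows count endogenous and viral transcripts together, and the study describes the HIF-1α transcript of the line itself as truncated. ARNT, which encodes HIF-1β, measured 33.1 to 69.9 CPM over the 9 libraries.

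Levels of different genes were compared as CPM per kilobase of the canonical transcript. In control cells CITED2 stood highest at 116 ± 24.4 CPM per kb (SD, n = 3), followed by EGLN3 at 62.1 ± 14.4, SIAH2 at 19.4 ± 2.66, VHL at 18.5 ± 1.55, EGLN1 at 17.0 ± 2.43, SIAH1 at 8.63 ± 1.03 and HIF1AN at 6.76 ± 0.801. SIAH2, VHL and EGLN1 lay within their spread of each other. EGLN2 stood lowest at 0.676 ± 0.250 CPM per kb. In HIF-2α overexpressing cells EGLN3 stood first at 236 ± 103 CPM per kb, ahead of CITED2 at 77.3 ± 19.7. The canonical HIF1AN transcript is 12.9 kb long, and a shorter transcript in these cells would raise its level per kb.

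**Figure D1:**
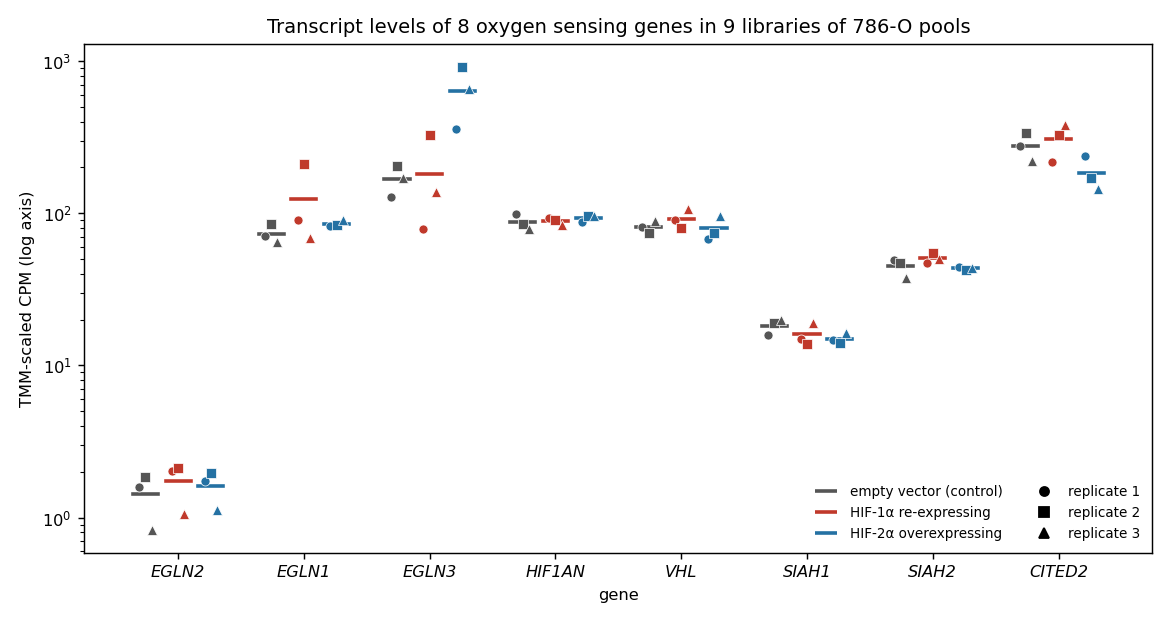
TMM-scaled CPM on a log axis for each of the 8 genes in the 9 RNA libraries, coloured by pool, with a bar at the mean of the 3 libraries and a marker shape for each replicate number. EGLN3 was the gene whose HIF-2α overexpressing libraries (356 to 912 CPM) all lay above the other 6 libraries (78.4 to 325 CPM).

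Of the prolyl hydroxylases, EGLN3 differed between HIF-2α overexpressing cells and the other pools in the fit with the replicate block, and EGLN2 and EGLN1 did not pass the test in any comparison. EGLN3, a 5-exon gene at chr14:34393433-34420280 on the minus strand, measured 356, 912 and 650 CPM in HIF-2α overexpressing libraries 1 to 3 and 128, 205 and 171 CPM in the control libraries of the same numbers. Every HIF-2α overexpressing library lay above every control library. Within replicate numbers the ratios were 2.79, 4.45 and 3.80, with a mean of 3.68 ± 0.837 (SD, n = 3). The log2 fold change was 1.93 with an SE of 0.51 without the block (edgeR adjusted p of 0.718) and 1.83 with an SE of 0.26 with the replicate block (edgeR adjusted p of 0.0372). DESeq2 without a block gave an adjusted p of 0.0423. The call with the block rested on all but 1 of the libraries. Without HIF-2α overexpressing replicate 1, 2 or 3 the edgeR adjusted p was 0.0937, 0.0640 or 0.158, without control replicate 2 or 3 it was 0.130 or 0.154, and without control replicate 1 it was 0.0357, while the log2 fold change stayed between 1.57 and 2.08.

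In HIF-1α re-expressing libraries 1 to 3 EGLN3 measured 78.4, 325 and 139 CPM, which overlapped the control libraries. Replicate 2 was the high one, above its control library by a ratio of 1.58, whereas the ratios in replicates 1 and 3 were 0.614 and 0.810. The log2 fold change against control cells was 0.11 without and −0.11 with the block, and its interval without the block ran from −1.0 to 1.21. Against HIF-2α overexpressing cells EGLN3 was lower in 3 of 3 replicate numbers, with ratios of 0.220, 0.356 and 0.213, and the libraries of these pools did not overlap. This difference had a log2 fold change of −1.82 with an SE of 0.51 without the block (edgeR adjusted p of 0.162) and −1.94 with an SE of 0.26 with it (edgeR adjusted p of 0.00515). It stayed past the threshold with the block when any 1 library of these pools was left out, with edgeR adjusted p-values of 0.00779 to 0.0324. The ratio of EGLN3 to EGLN1 counts was 4.30 to 10.9 in HIF-2α overexpressing libraries, 1.79 to 2.66 in control libraries and 0.870 to 2.01 in HIF-1α re-expressing libraries.

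EGLN1, the main oxygen sensor among these enzymes and a 5-exon gene at chr1:231499502-231558033, measured 90.1, 212 and 69.0 CPM in HIF-1α re-expressing libraries 1 to 3 against 71.2, 85.0 and 64.4 CPM in the control libraries. It was higher within each replicate number, by ratios of 1.27, 2.49 and 1.07, yet the pools overlapped. The high library was replicate 2, which also had the highest HIF1A level. Replicate 1, however, had more EGLN1 and less HIF1A than replicate 3. Over the 9 libraries the Pearson r of EGLN1 with HIF1A in log2 CPM was 0.534. The log2 fold change was 0.75 with an SE of 0.36 (95% interval −0.06 to 1.56, edgeR adjusted p of 0.285), and 0.64 with the block (edgeR adjusted p of 0.160). Without HIF-1α re-expressing replicate 2 it was 0.087. A gene of the newer annotation that has no row overlaps 69.3% of the exonic bases of EGLN1 on the same strand. In HIF-2α overexpressing cells EGLN1 measured 82.6, 83.7 and 89.6 CPM, a log2 fold change of 0.21 against control cells with an interval of −0.59 to 1.02. Over the 9 libraries the gene whose log2 CPM followed EGLN1 most closely was PDK1, a kinase that restrains pyruvate dehydrogenase, with a Pearson r of 0.980 (n = 9 libraries that share pools, replicate numbers and scaling factors).

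**Figure D2:**
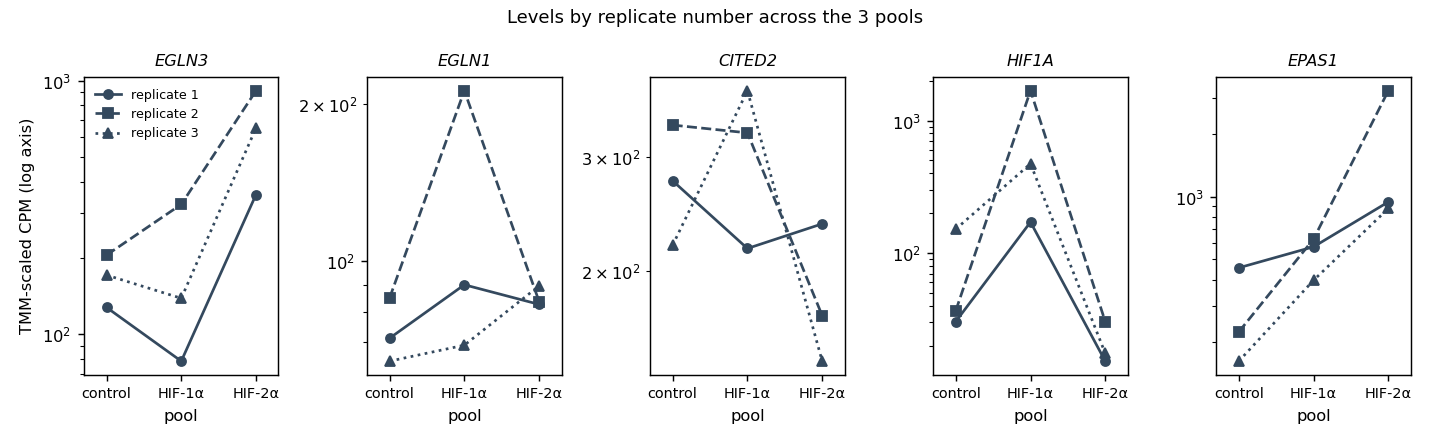
TMM-scaled CPM on log axes for EGLN3, EGLN1, CITED2, HIF1A and EPAS1, with each line joining the libraries of 1 replicate number across the control, HIF-1α re-expressing and HIF-2α overexpressing pools. All 3 lines of EGLN3 ended highest in the HIF-2α pool, and EGLN1 peaked in HIF-1α replicate 2 at 212 CPM, the library with 1682 CPM of HIF1A. Replicate 1 of that HIF-1α pool had more EGLN1 and less HIF1A than replicate 3.

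EGLN2, a prolyl hydroxylase gene with 6 exons at chr19:41305096-41314339, had only 32 to 84 counts per library. It measured 2.01, 2.13 and 1.06 CPM in HIF-1α re-expressing, 1.73, 1.95 and 1.13 CPM in HIF-2α overexpressing and 1.58, 1.85 and 0.834 CPM in control libraries 1 to 3. Replicate 3 was lowest in every pool, and the pools overlapped. The log2 fold changes against control cells were 0.28 (SE 0.46) and 0.18 (SE 0.46). This level is uncertain, because 95.8% of its exonic bases are overlapped on the same strand by other genes, RAB4B-EGLN2 among them, a read-through gene that has a row of its own with 0 to 6 counts, and the authors' counting mode leaves out reads that fit several genes. How many reads were left out was not tested.

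The asparaginyl hydroxylase gene HIF1AN, with 8 exons at chr10:102295700-102319755, was the steadiest of the genes, with a coefficient of variation of 7.49% over the 9 libraries. It measured 83.7 to 93.0 CPM in HIF-1α re-expressing, 88.1 to 96.3 CPM in HIF-2α overexpressing and 78.4 to 98.7 CPM in control cells, and all pools overlapped. The 95% intervals of its log2 fold changes ran from −0.36 to 0.41 for HIF-1α re-expressing and from −0.29 to 0.48 for HIF-2α overexpressing against control cells. Changes within these bounds could not be resolved.

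VHL transcript was present in every library, at 79.6 to 107 CPM in HIF-1α re-expressing, 67.9 to 96.5 CPM in HIF-2α overexpressing and 74.6 to 88.3 CPM in control cells, although the line lacks functional VHL protein. Another gene of the annotation overlaps 26.6% of the exonic bases of VHL on the opposite strand, and without a stated strand setting their reads cannot be told apart. The 3-exon gene lies at chr3:10183462-10195351. HIF-1α re-expressing libraries were higher than control libraries of the same number by ratios of 1.10, 1.07 and 1.21, and the log2 fold change was 0.18 with an interval of −0.28 to 0.63 (edgeR adjusted p of 0.657). The change in HIF-2α overexpressing cells was −0.03 with an interval of −0.49 to 0.42.

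Of the SIAH ubiquitin ligases, SIAH1 measured 15.001, 13.8 and 19.1 CPM in HIF-1α re-expressing, 14.6, 13.96 and 16.4 CPM in HIF-2α overexpressing and 15.8, 18.9 and 19.9 CPM in control libraries 1 to 3. It was lower than control within each replicate number in both HIF pools, by log2 fold changes of −0.19 (SE 0.23) and −0.28 (SE 0.23), with overlapping libraries and edgeR adjusted p-values of 0.675 and 0.860. SIAH1 shares 45.2% of its exonic bases with LONP2 on the opposite strand and SIAH2 4.6% with SIAH2-AS1, and the strand setting of the counting is not given in the sources used here. SIAH2 measured 47.3, 54.9 and 49.9 CPM in HIF-1α re-expressing, 44.3, 42.5 and 43.4 CPM in HIF-2α overexpressing and 49.4, 47.2 and 37.8 CPM in control libraries. Its HIF-1α re-expressing libraries all lay above its HIF-2α overexpressing libraries, but the log2 fold change was only 0.22 (SE 0.18, edgeR adjusted p of 0.618).

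CITED2, a 2-exon gene at chr6:139692944-139695785, did not pass the test in any comparison, and its lowest levels were in HIF-2α overexpressing cells. It measured 236, 171 and 145 CPM in HIF-2α overexpressing libraries 1 to 3, against 275, 335 and 219 CPM in control and 217, 326 and 379 CPM in HIF-1α re-expressing libraries. Each HIF-2α overexpressing library was lower than the control library of its number, with ratios of 0.858, 0.509 and 0.663, and the pools overlapped. The log2 fold change was −0.59 with an interval of −1.23 to 0.05 (edgeR adjusted p of 0.837, and 0.370 with the block). Between HIF-1α re-expressing and HIF-2α overexpressing cells it was 0.74 with an SE of 0.29 (unadjusted p of 0.0275, edgeR adjusted p of 0.296), and the first replicate number went the other way with a ratio of 0.916.

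Over the 8 genes, edgeR without the block called 0 in each comparison, where it called 0%, 0% and 0.0492% of the 14225 genes for HIF-1α re-expressing against control, HIF-2α overexpressing against control and HIF-1α re-expressing against HIF-2α overexpressing cells. At an unadjusted p under 0.05, 0, 1 and 2 of the 8 genes were past the threshold, beside 19.4%, 5.89% and 13.6% of all genes. With the replicate block 0, 1 and 1 were called, EGLN3 each time, beside 7.96%, 0.267% and 5.93% of all genes. DESeq2 called the same counts. It was run on the whole count table without edgeR's filter and called 751, 65 and 650 genes there. These equal 5.28%, 0.457% and 4.57% of the number 14225, though the calls were not limited to those genes. The libraries of the pools compared did not overlap for 0, 1 and 2 of the 8 genes, beside 24.1%, 11.2% and 19.2% of all genes. The median log2 fold changes of the 8 genes were 0.16, 0.03 and 0.16, beside 0.04 and −0.02 over all genes in the comparisons with control cells, which share their 3 control libraries.

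**Figure D3:**
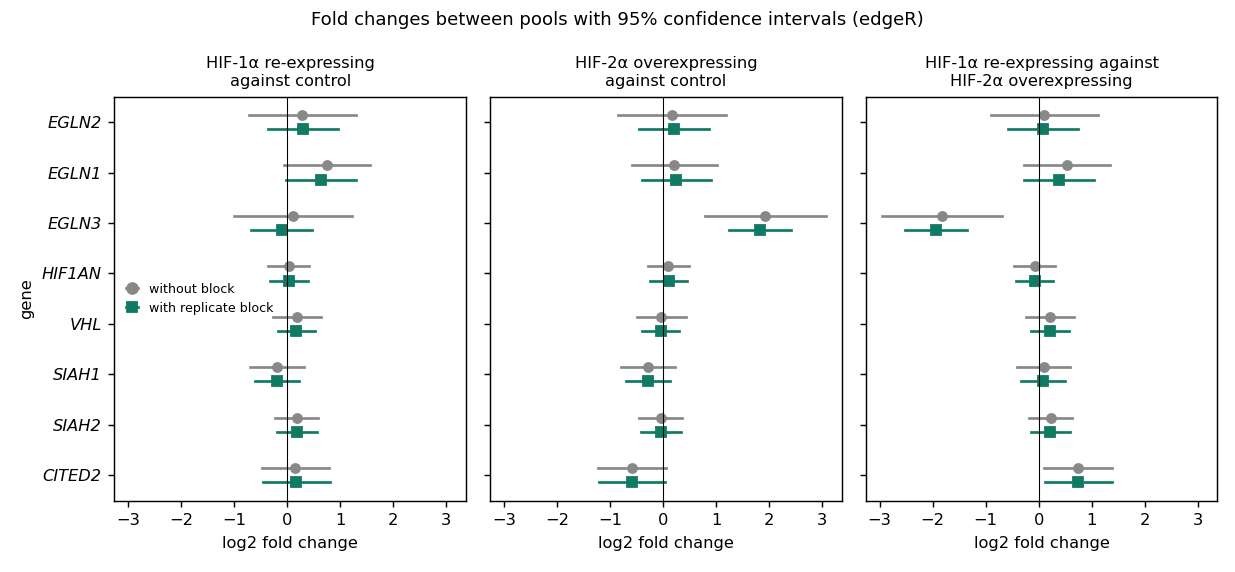
Log2 fold changes of the 8 genes in the 3 comparisons between pools, with 95% confidence intervals from edgeR without (grey circles) and with (green squares) the replicate block. EGLN3 lay at 1.93 and 1.83 in HIF-2α overexpressing against control cells and at −1.82 and −1.94 in HIF-1α re-expressing against HIF-2α overexpressing cells, and its intervals narrowed with the block.

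Of 32 other genes of the pathway, 29 were tested, and edgeR without the block called 0 in each comparison (4, 4 and 8 at an unadjusted p under 0.05, beside the 19.4%, 5.89% and 13.6% of all genes). With the block 3, 0 and 2 of the 29 were called, beside 7.96%, 0.267% and 5.93% of all genes. DESeq2 without a block called 2, 1 and 3 of the 29, beside 751, 65 and 650 genes in the whole count table. Among the HIF subunits, HIF1A rose with the block in HIF-1α re-expressing cells (log2 fold change of 3.12 against control, edgeR adjusted p of 0.0418). EPAS1 was 2.59 higher on the log2 scale in HIF-2α overexpressing than in control cells, with an edgeR adjusted p of 0.490 without and 0.0690 with the block, and 0.00174 by DESeq2. Among the VHL ligase partners, TCEB1, which encodes elongin C, fell with the block in HIF-1α re-expressing cells, from 160, 180 and 198 CPM in the control libraries to 113, 104 and 95.8 CPM (log2 fold change of −0.78, SE 0.18, edgeR adjusted p of 0.0424). The other 4 VHL ligase partners did not pass the test in any comparison. CITED4, a relative of CITED2 that also binds the coactivators, rose with the block in HIF-1α re-expressing cells, from 0.724, 0.654 and 1.17 CPM to 1.79, 1.37 and 4.45 CPM (log2 fold change of 1.47, SE 0.35, edgeR adjusted p of 0.0431). WTIP, a LIM protein related to AJUBA and LIMD1, was higher with the block in HIF-1α re-expressing than in HIF-2α overexpressing cells (log2 fold change of 2.57, edgeR adjusted p of 0.0464). Its levels were 4.46, 1.92 and 7.56 CPM in HIF-1α re-expressing libraries 1 to 3 and 0.722, 0.733 and 0.411 CPM in HIF-2α overexpressing libraries. In the control libraries they were 1.86, 1.14 and 8.42 CPM. With the block, these counts changed when single libraries were left out. Leaving out control replicate 1 gave 5 calls in HIF-1α re-expressing against control cells and leaving out any other library of these pools gave 0, while in HIF-1α re-expressing against HIF-2α overexpressing cells it was 1 or 2, and 0 without HIF-2α overexpressing replicate 3.

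HIF binding near the 8 genes was read from the deposited peaks, windows of 2500 bp with no height, and with 1 library per list there was no test. A gene was counted where a peak midpoint lay within 10 kb of any of its annotated start sites. The HIF-1α list of the HIF-1α re-expressing cells reached 7 of the 8 genes, every gene but VHL, beside 34.6% of the 13767 tested genes that could be placed. The HIF-2α list reached 2 genes (EGLN3 and CITED2) in control cells and the same 2 in HIF-1α re-expressing cells, beside 5.33% and 4.22% of tested genes, and 3 genes (EGLN1, EGLN3 and CITED2) in HIF-2α overexpressing cells, beside 14.5%. The HIF-1β lists reached 6 genes in control cells, 6 in HIF-1α re-expressing cells and 4 in HIF-2α overexpressing cells, beside 25.7%, 40.8% and 16.2%. Any HIF-α list reached 7 genes, beside 39.2%. The lists differ in length, from 1350 peaks for HIF-2α in HIF-1α re-expressing cells to 6572 for HIF-1β in control cells, with 5147 for HIF-1α and 5283 for HIF-2α in overexpressing cells, so a gene missing from a short list is not shown to be unbound.

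**Figure D4:**
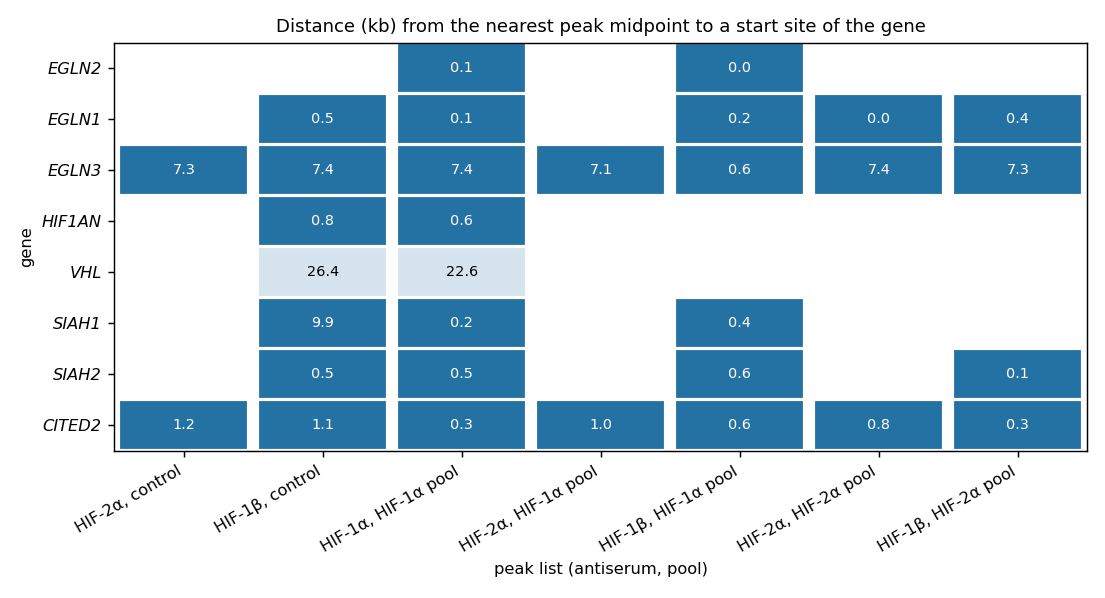
Distance in kb from the nearest peak midpoint of each list to any annotated start site of each gene, with dark cells within 10 kb, pale cells within 50 kb and blank cells beyond. CITED2 and EGLN3 had a dark cell in all 7 lists, EGLN2 in 2, and VHL in none. The EGLN3 distances are to starts of minor transcripts. For the HIF-1β list of HIF-1α re-expressing cells, the EGLN3 distance is that of a peak 511 kb upstream of the canonical start. That peak lies 0.033 kb from the start of SPTSSA.

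EGLN3 had the most sites. A site in intron 1, 12.4 kb downstream of the canonical start, was in all 7 lists, within chr14:34406440-34409178. It counts as within 10 kb only through a minor annotated start 7.32 kb away. A site 84.7 kb upstream was also in all 7 lists, with midpoints within 551 bp of each other. This site and the farther ones below lay upstream of the canonical start but inside the span annotated for EGLN3 over all its transcripts. A site 93.0 kb upstream, inside EGLN3-AS1, was in 5 lists and missing from the HIF-2α lists of control and HIF-1α re-expressing cells, the shortest of the 7 lists. A chain of overlapping windows about 109 kb upstream was in 6 lists, with midpoints spread over 4004 bp. There the HIF-2α peak of the overexpressing cells lay 111 kb upstream, at chr14:34530355-34532854, and did not cover the printed stretch. HIF-2α in the overexpressing cells also had a peak 130 kb upstream that no other list held. For these sites the nearest start of another coding gene was that of NPAS3, 203 kb from the intron 1 site and farther from the others. A further peak 511 kb upstream, in the HIF-1β list of HIF-1α re-expressing cells, lay 0.033 kb from the start of SPTSSA.

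**Figure D5:**
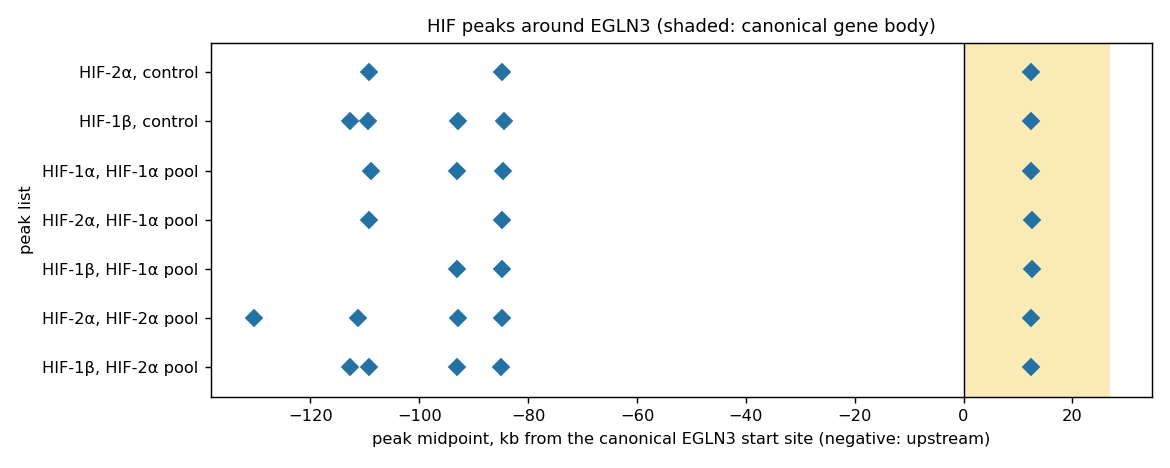
Peak midpoints around EGLN3 in the 7 lists, in kb from the canonical start site along the direction of transcription, with the canonical gene body shaded. The columns at 12.4 kb and −84.7 kb are filled in all 7 lists, and the point at −130 kb is in the HIF-2α list of HIF-2α overexpressing cells. A peak at −511 kb, next to the start of SPTSSA, is off the scale.

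At EGLN1 the site lay in the untranslated part of exon 1, 0.194 kb from the start, and was in 5 lists. Among HIF-2α lists it was in that of the overexpressing cells and in neither of the others. At EGLN2 the site lay at the start itself, −0.025 kb, and was held by the HIF-1α and HIF-1β lists of the HIF-1α re-expressing cells and by no list of the other pools. SIAH1 had a site 0.118 kb from its start in the same pair of lists, and a HIF-1β peak of control cells 9.88 kb from a minor start. SIAH2 had a site in the coding part of exon 1, 0.548 kb from the start, in the HIF-1α list and in all 3 HIF-1β lists, but in no HIF-2α list. The HIF1AN site was 6.17 kb upstream of the canonical start, in the HIF-1α list and the HIF-1β list of control cells, and lay 0.087 kb from the start of NDUFB8. VHL had no peak within 10 kb. Its nearest peaks lay at starts of other genes, 26.4 kb upstream at BRK1 and 23.4 kb downstream at IRAK2.

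CITED2 had 1 site upstream of its start in all 7 lists. Midpoints ranged from 0.318 kb upstream for HIF-1α and 0.347 kb for HIF-1β in HIF-2α overexpressing cells to 1.15 kb for HIF-2α in control cells. The positions thus spread over 836 bp, wider than the 239 bp at the EGLN3 intron.

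Of the 14 HIF-α peaks within 10 kb of these genes, 11 (78.6%) held an HRE core within 150 bp of the midpoint. The EGLN3 intron site and the CITED2 site were each counted in all 4 HIF-α lists, so the 14 peaks are not separate sites. The share was 56.9% over all 13499 HIF-α peaks and 34.0% in windows of the same length 2 kb to either side. The exceptions were the HIF-1α peak of CITED2 and the HIF-1α peak and the HIF-2α peak of overexpressing cells at the EGLN3 intron, where the cores lay farther from the midpoint. In a window of 600 bp centred on the midpoint all 14 held a core. The share over all peaks was not computed for this wider window, so that count has no background. An AP-1 site lay within 150 bp of 2 of the 14 (14.3%), both of them peaks of the EGLN3 intron site. The shares were 18.7% of all HIF-α peaks and 4.47% of the flanking windows. A match of these letters is a description and not evidence of a bound site.

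Set beside expression, EGLN3 and CITED2 were the genes in all 7 lists, and in HIF-2α overexpressing cells EGLN3 rose with the block while CITED2 measured lower in 3 of 3 replicate numbers without passing the test. The 7 genes other than VHL had a HIF-1α peak in HIF-1α re-expressing cells, and their log2 fold changes against control cells ranged from −0.19 for SIAH1 to 0.75 for EGLN1 with no call by edgeR with or without the block, or by DESeq2. The genes that followed EGLN3 most closely in log2 CPM were SYNPO, IAPP and SEPT9, with Pearson r of 0.956, 0.948 and 0.947 over the same 9 libraries. For the remaining genes the closest were AGGF1 for EGLN2 (0.977), IFIH1 for HIF1AN (0.941), NOXA1 for VHL (0.957), ATP5SL for SIAH1 (0.956), UBE2H for SIAH2 (0.927) and IPCEF1 for CITED2 (0.934). With 9 libraries and 14225 genes searched, values of this size are a description.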

How the data were processed

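RNA-seq was analysed in 9 libraries and ChIP-seq in 7 lists of peaks from 786-O pools. For each gene symbol the authors deposited unnormalized read counts, obtained through TopHat2 2.0.8b, Bowtie 1.0.0 and HTSeq 0.5.4p3 in its strict intersection mode on UCSC genes, with replicates kept apart. They deposited peaks as positions on GRCh37, aligned with BWA 0.7.5a-r405, called by T-PIC as well as MACS, then filtered on reads and given without a score, so depth is unknown from them. The submitters' processing notes give the versions.

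Counts were tested with edgeR 4.0.16 (R 4.3.3): all 9 libraries in 1 fit with the pool as the term, TMM factors, edgeR's filter on low counts and quasi-likelihood F tests. Benjamini-Hochberg adjustment was over 14225 genes with a threshold of 0.05. DESeq2 1.42.0, the tool of the study, was an alternative, run on the whole count table without edgeR's filter. Per-library levels are TMM-scaled CPM. Replicate variation was 37.6% (biological coefficient of variation), or 24.6% with the replicate block, and for EGLN2, CITED4 and WTIP the low counts limit the precision as well. The numbers in the labels were taken to pair the libraries, because after subtracting pool means the 9 pairs with the same number in different pools correlated at 0.348 to 0.652 across genes and the 18 other pairs at −0.478 to 0.0281. Replicate libraries differed by far more than counting noise. The scripts were tested on simulated data.

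Sites are peaks that share at least 1 base. Start sites, exons and lengths came from GENCODE lifted to GRCh37, and 890 of 13767 genes were placed by an older symbol. Sequences were read from GRCh37 (samtools 1.23.1, Python 3.11.15). Inputs were not analysed here, and 1 renal marker is not reported here.

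All 8 genes are named by rule. Of the other pathway genes, HIF1A, EPAS1, ARNT and those past the threshold in either edgeR fit are named, and per gene the most correlated gene (3 for EGLN3). The genes, lists and tests were chosen with earlier results of these data known. The width of the printed stretches and leaving out libraries under the block were chosen after seeing the data.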

Additional observations from a re-analysis of the deposited data

How the results depend on the processing

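Besides the fit blocked on replicate number, DESeq2, other scaling factors (RLE), no filter on low counts, only the 6 libraries compared and leaving out each library in turn, with and without the block, were tried for the RNA results. The replicate block took the number of the 8 genes called from 0 to 0, 1 and 1 in HIF-1α re-expressing against control, HIF-2α overexpressing against control and HIF-1α re-expressing against HIF-2α overexpressing cells, and DESeq2 gave the same numbers, EGLN3 being the gene called. Among the other pathway genes the block gave 3, 0 and 2 calls and DESeq2 2, 1 and 3, and dropping the filter gave 1 in the last comparison, where the fit as reported gave 0. The replicate block changed no other call. Leaving out a library gave 0 to 1 of the 8 genes in the comparisons other than HIF-1α re-expressing against control, where it gave 0, and 0 to 5, 0 to 1 and 0 to 2 pathway genes in the 3 comparisons. The causes of these shifts were not tested.

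Log2 fold changes that were small in the fit as reported changed sign. For HIF-1α re-expressing against control cells EGLN3 was −0.11 with the replicate block and −0.66 to 0.46 with a library left out, HIF1AN was −0.0041 by DESeq2, −0.0044 with no filter and −0.056 to 0.12 with a library left out, and CITED2 was −0.18 to 0.46. For HIF-2α overexpressing against control cells, leaving out a library gave −0.10 to 0.41 for EGLN2, −0.015 to 0.52 for EGLN1, −0.19 to 0.073 for VHL and −0.16 to 0.054 for SIAH2. Between HIF-1α re-expressing and HIF-2α overexpressing cells it gave −0.12 to 0.37 for EGLN2, −0.13 to 0.82 for EGLN1 and −0.058 to 0.16 for SIAH1. No directional statement on these genes rests on such values, and 362 of the 408 alternative values kept both sign and side of the threshold. EGLN3 in HIF-2α overexpressing against control cells kept its direction under every alternative, from 1.57 to 2.22, with adjusted p-values of 0.0357 to 1.0 by edgeR and DESeq2.

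The number of genes with a HIF-α peak was 7 within 10 kb, 6 within 5 kb, 8 within 50 kb, 5 from the 5′ end of the gene alone and 6 from starts of protein-coding transcripts alone, where EGLN3 is lost. The share of tested genes was computed only within 10 kb of any annotated start (39.2%), so the other counts have no background. HRE cores were in 11 of 14 peaks within 150 bp of the midpoint. They were in 14 in a 600 bp window centred on it and in 14 in the whole peak window. No share over all peaks was computed for the wider windows. Depth limits the precision of EGLN2, at 32 to 84 counts per library, and of the other genes at a few CPM, such as CITED4 and WTIP. Peak lists carry no depth and 1 library each.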
